A study of Mus musculus with 2 samples.

Results

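The 37 genes described here are Nrf2 itself (Nfe2l2), its regulators Keap1 and Sqstm1, and genes for glutathione, thioredoxin, NADPH supply, peroxide removal, heme and iron handling, and conjugation. They were taken by name from a list that was chosen with earlier results of these data known. All 37 of 37 were among the 29417 genes measured. The measurements came from 1 pool of stromal vascular cells, which are what digestion of fat yields beside the adipocytes, out of epididymal white adipose tissue of wild-type male C57BL/6J mice. The mice had received a high-fat diet for 8 or 16 weeks or a standard diet for 16 weeks. Cells of each suspension were marked with hashtag antibodies, DNA-barcoded antibodies that allow pooled suspensions to be separated again, and 9 hashtag populations (A0301 to A0305, A0307 to A0310, without A0306) were in the transcriptome table. Which hashtag marks which diet or animal is not given in the labels, so diets were not compared, the 9 populations were treated as unassigned samples, and no test was made.

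Nrf2 is a transcription factor that is kept low by Keap1, an adaptor of a Cul3 ubiquitin ligase which marks Nrf2 for degradation. When cysteines of Keap1 react with oxidants or electrophiles, Nrf2 accumulates, pairs with a small Maf protein and binds the antioxidant response element in the promoters of its target genes. The targets make glutathione, recycle thioredoxin, supply NADPH, degrade heme, store iron and conjugate or reduce reactive compounds. Macrophages of fat take up lipid and iron and produce superoxide with their NADPH oxidase.

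The core of the antioxidant response element, TGACNNNGC, was searched on both strands of RefSeq promoters (GRCm38.p6, 250 bases before to 50 bases after the start site, 300 bases in all) for the 30 members with a promoter in that table. It was in 9 of these 30 genes (30.0%), against 3781 of 27025 genes (14.0%) in all. Per promoter it was in 9 of 40 promoters of members (22.5%), against 4071 of 32851 promoters (12.4%). In the macrophage-like subcluster led by Serpinb9b, described later, 20 members were over 2-fold higher. Of these, 15 had a promoter to search, and the motif was in 6 of the 15. It was in 3 of the 15 other members with a promoter. Hmox1, Gclc, Gsr, Slc48a1 and Abcc1 were also higher there but had no promoter to search. The members were chosen as Nrf2 and antioxidant genes, so these shares are no independent support for Nrf2 binding. A match is a description of these letters and not a mapped binding site. Of the 9 members, the 6 with the motif before the start site are shown, because these letters are the core of the element to which Nrf2 binds. They run 5′ to 3′ on the strand of the gene with the motif, or its reverse complement, in capitals.
Gclm, chr3:122245413-122245441, plus strand: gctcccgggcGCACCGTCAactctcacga
Prdx1, chr4:116685456-116685484, plus strand: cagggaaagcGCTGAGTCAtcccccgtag
Txnrd1, chr10:82859104-82859132, plus strand: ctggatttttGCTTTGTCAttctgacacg
G6pdx, chrX:74428919-74428947, minus strand: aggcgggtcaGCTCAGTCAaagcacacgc
Sod1, chr16:90220696-90220724, plus strand: gccaaggtggGCGTGGTCAgactcaggcc
Nfe2l2, chr2:75704885-75704913, minus strand: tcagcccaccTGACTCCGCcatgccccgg
The motif ended 125 bases before the start site in Gclm, 124 in Prdx1, 83 in Txnrd1, 48 in G6pdx, 47 in Sod1 and 231 in Nfe2l2. In Me1, Pgd and Srxn1 it lay at or after the start site.

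After filters, 10286 cells remained, with a median of 36709 reads (5169 to 736281) and 810 to 1428 cells per hashtag population, and no cell barcode was used more than once. Levels are reads summed over a class of cells, scaled to counts per 1e+06 reads of that class (CPM), and their intervals are 95% exact Poisson intervals that cover counting error only. Intervals of percentages of cells are 95% exact binomial intervals. They also cover counting error only and hold no spread between animals. Folds are ratios of CPM plus 1, and a gene was counted as higher or lower past 2-fold with at least 20 CPM on 1 side. The deposited table lacks low values for 13 members, among them Gclm (lowest value above 0 of 6 reads), Prdx1 (11 reads), Gsta4 (135 reads) and Gstm1 (847 reads), so a 0 of these genes may hide any smaller count. Class names rest on marker genes, and neither the 37 members nor the related gene lists were used to cluster the cells.

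The 37 genes together were higher in macrophage-like than in fibroblast-like cells. Their mean log2(CPM + 1) was 6.97 in 3779 macrophage-like cells and 6.09 in 3133 fibroblast-like cells, while the mean over all genes was 2.07 and 2.20 in these classes. Macrophage-like cells were 36.7% of all cells (95% exact binomial interval 35.8 to 37.7) and fibroblast-like cells 30.5% (29.6 to 31.4). The mean over the 37 genes was 5.76 in 993 endothelial-like cells, 6.06 in 296 mesothelial-like cells, 5.67 in mural-like cells and 5.89 in 401 cells like type 2 conventional dendritic cells. It was 5.17 in B cell-like and 4.99 in T cell-like cells. Among macrophage-like, fibroblast-like, endothelial-like, mesothelial-like and mural-like cells, 21 members had their highest level in macrophage-like cells. The share of all genes highest in macrophage-like cells is not given here, so this count has no background beside it. Median reads per cell differed between classes, at 62442 for macrophage-like cells, 45758 for fibroblast-like cells and 14659 for endothelial-like cells, and the part of depth in these levels was not tested beyond the alternatives given in the closing section.

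**Figure D1:**
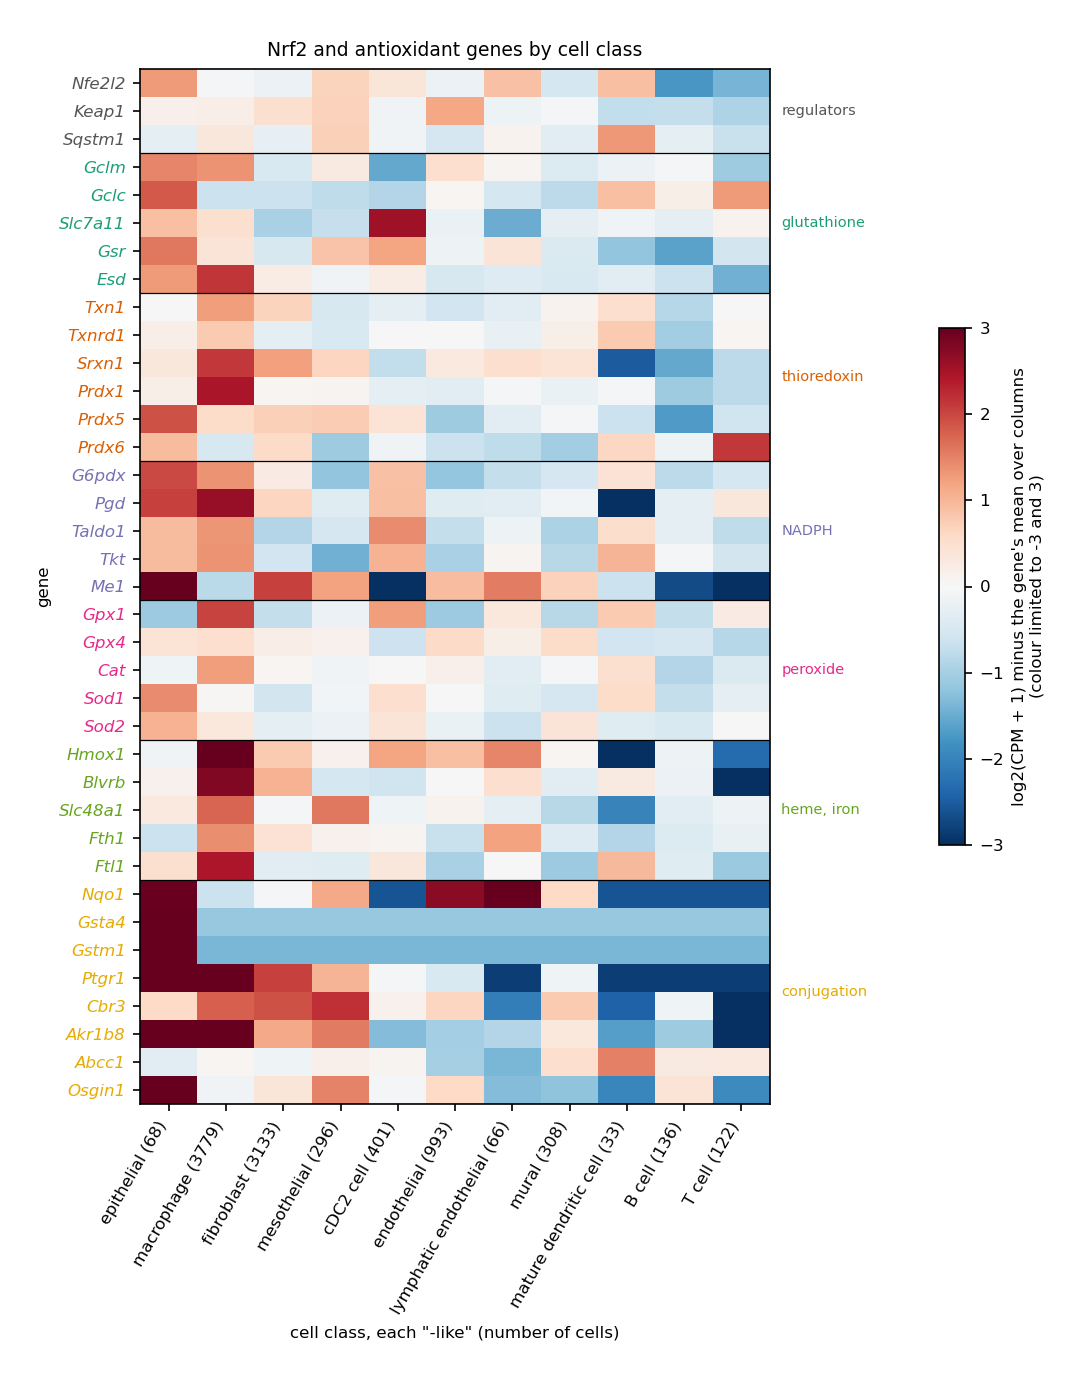
Level of each of the 37 genes (rows, coloured by role) in 11 named cell classes (columns, cells in parentheses, ordered by mean level) as log2(CPM + 1) minus the gene's mean over the 11 classes. Epithelial-like and macrophage-like cells each hold the highest level of 14 genes, with no share of all genes given for comparison. Gsta4 and Gstm1 are listed at 0 outside epithelial-like cells.

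The highest mean over the 37 genes was that of 68 epithelial-like cells, 7.71, which held the highest level of 14 of the 37 members among the 11 named classes. No share of all genes is given beside this count for epithelial-like cells. The glutathione transferase genes Gstm1 and Gsta4 had reads only there, with 35397 CPM for Gstm1 and 6125 CPM for Gsta4. Reads of Gstm1 were in 53 and of Gsta4 in 52 of the 68 cells, with medians of 4988 and 905 reads in those cells, and in no other kept cell. Since the lowest values of these genes in the table are 847 and 135 reads, lower levels in other classes cannot be seen. Without both genes the mean was 7.36 in epithelial-like, 7.37 in macrophage-like and 6.44 in fibroblast-like cells.

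Epithelial-like cells also held the highest levels of Me1, the cytosolic malic enzyme that makes NADPH, with 267 CPM, and of Osgin1, an oxidative stress-induced growth inhibitor, with 97.3 CPM. Gclc, the catalytic subunit of the ligase that starts glutathione synthesis, was at 161 CPM in epithelial-like cells and at 28.1 CPM in macrophage-like cells. Nfe2l2 stood at 492 CPM in epithelial-like, 376 CPM in lymphatic endothelial-like and 197 CPM in macrophage-like cells. The epithelial-like cells had a median of 114974 reads and came in numbers of 1 to 39 from the hashtag populations.

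Single members had their highest level in other classes. Nqo1, a quinone reductase widely used as an Nrf2 target, was at 71.4 CPM in 66 lymphatic endothelial-like cells, 45.9 CPM in epithelial-like cells, 38.2 CPM in endothelial-like cells, 4.73 CPM in fibroblast-like cells and 2.83 CPM in macrophage-like cells. Slc7a11, which imports cystine for glutathione synthesis, reached 23.8 CPM in cells like type 2 conventional dendritic cells and 4.94 CPM in macrophage-like cells. Prdx6, a peroxiredoxin, was at 430 CPM in the 122 T cell-like cells, whose median depth was 15787 reads. Sqstm1, an autophagy receptor that also binds Keap1, was at 970 CPM and the glutathione conjugate exporter Abcc1 at 132 CPM in the 33 cells like mature dendritic cells.

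Against fibroblast-like cells, 16 members were higher in macrophage-like cells and 2 were lower, 14 lay within 2-fold and 5 were under 20 CPM in both. Of the 7749 genes at 20 CPM, 17.3% were higher and 21.5% lower. The median log2 ratio was 1.02 for the 32 members at 20 CPM and -0.00 for all genes at that level. Of the 16 members, 14 were higher in macrophage-like cells in all 9 hashtag populations, and Gclm and Ptgr1 in 8. No share of all genes with 1 direction in all 9 is given for comparison. The difference counted fewer members without the Serpinb9b subcluster: 11 of the 16 remained over 2-fold, and Gclm (1.76-fold), Txnrd1 (1.76-fold), G6pdx (1.97-fold), Cat (1.69-fold) and Ptgr1 (1.42-fold) did not. Without hashtag A0310 it was also 11 of the 16, and 12 of the 16 when the largest count that the table can hide was put in place of each 0, where Gclm (1.24-fold), Ptgr1 (1.06-fold), Pgd (1.87-fold) and Blvrb (1.94-fold) were lost.

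The regulators were at like levels in both classes. Nfe2l2 had 197 CPM (196 to 199) in macrophage-like cells and 179 CPM (177 to 181) in fibroblast-like ones, Keap1 had 40.4 and 49.2 CPM, and Sqstm1 494 and 329 CPM. By hashtag population, Nfe2l2 ranged from 179 to 331 CPM (median 210) in macrophage-like cells and from 152 to 203 CPM (median 173) in fibroblast-like cells, so these ranges overlapped.

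Heme and iron genes were 4 of 5 higher in macrophage-like cells. The ferritin light chain gene Ftl1 was at 16755 CPM in macrophage-like cells, against 2458 CPM in fibroblast-like ones, 6.81-fold. The heavy chain gene Fth1 was at 8816 and 4477 CPM, 1.97-fold and within the limit. Hmox1, the heme oxygenase that opens the heme ring, had 363 CPM in macrophage-like cells, against 64.5 CPM in fibroblast-like ones. Slc48a1, a heme transporter of the endolysosome, had 236 and 67.1 CPM, and the biliverdin reductase Blvrb 258 and 76.3 CPM. By hashtag population, Ftl1 ranged from 8237 to 21701 CPM (median 15483) in macrophage-like cells and from 2034 to 2970 CPM (median 2447) in fibroblast-like cells. These ranges did not overlap, and every macrophage-like population stood above every fibroblast-like one.

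Of the 5 NADPH genes, 4 were higher and 1 lower in macrophage-like cells. The pentose phosphate enzymes G6pdx and Pgd, which make NADPH, had 97.9 against 45.7 CPM and 217 against 54.9 CPM. Taldo1 and Tkt, which return pentoses to glycolysis, had 395 against 84.8 CPM and 335 against 87.7 CPM. Me1 went the other way, with 6.09 CPM in macrophage-like cells, against 50.1 CPM in fibroblast-like ones, in all 9 hashtag populations. In macrophage-like cells Me1 ranged from 1.5 to 17.9 CPM (median 2.7) and in fibroblast-like cells from 34.4 to 69.5 CPM (median 48.2) over the hashtag populations, with no overlap.

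Of the peroxide and superoxide genes, 2 of 5 were higher. Gpx1, the cytosolic glutathione peroxidase, was at 3968 CPM in macrophage-like cells, against 594 CPM in fibroblast-like ones, 6.67-fold, and catalase (Cat) at 158 and 68.9 CPM. Gpx4, which reduces lipid peroxides, had a ratio of 1.23, and the superoxide dismutase genes Sod1 (397 and 264 CPM) and Sod2 (90.0 and 59.5 CPM) also lay within 2-fold. Over the hashtag populations Gpx1 ranged from 2542 to 4479 CPM (median 3623) in macrophage-like cells and from 454 to 722 CPM (median 577) in fibroblast-like ones, again without overlap.

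In the thioredoxin system, Prdx1 was at 3154 CPM in macrophage-like cells, against 606 CPM in fibroblast-like ones, 5.20-fold, and the thioredoxin reductase gene Txnrd1 at 163 and 77.4 CPM. Prdx6 was lower, with 70.4 CPM in macrophage-like cells, against 148 CPM in fibroblast-like ones, in all 9 hashtag populations. Txn1 (918 and 609 CPM), Prdx5 (229 and 260 CPM) and Srxn1, the sulfiredoxin that restores overoxidised peroxiredoxins (95.2 and 50.6 CPM), lay within 2-fold.

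For glutathione, Gclm, the modifier subunit of the ligase, had 91.8 CPM in macrophage-like cells, against 25.6 CPM in fibroblast-like ones. Esd, a formylglutathione hydrolase, had 438 and 117 CPM. Gclc had 28.1 and 28.0 CPM, a ratio of 1.00. Of the conjugation and reduction genes, the aldo-keto reductase Akr1b8 (242 and 46.7 CPM) and the prostaglandin reductase Ptgr1 (73.6 and 28.2 CPM) were higher in macrophage-like cells, while the carbonyl reductase Cbr3 had 36.1 and 39.4 CPM.

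**Figure D2:**
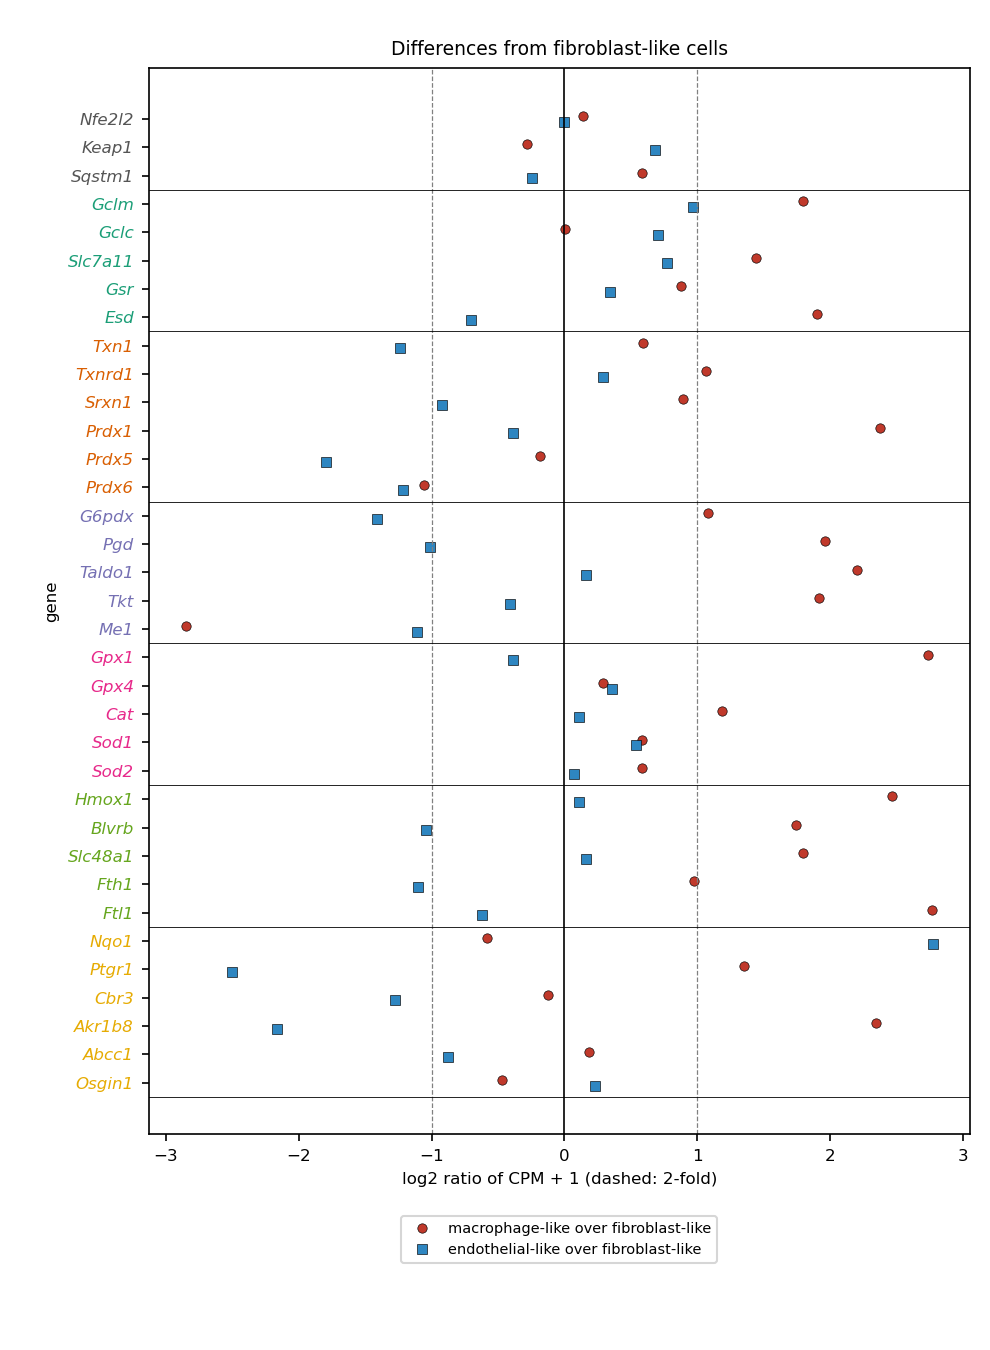
Log2 ratio of CPM + 1 for 35 genes (rows, coloured by role, without Gsta4 and Gstm1), in macrophage-like over fibroblast-like cells (circles) and in endothelial-like over fibroblast-like cells (squares), each from 1 pooled library. Most circles lie right of 0, with Ftl1 and Gpx1 farthest, and Nqo1 is the only square right of the 2-fold line.

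The wider pathway lists went in both directions. Of the 7 genes of the NADPH oxidase at 20 CPM, 6 were higher in macrophage-like cells, with Cybb, its membrane subunit, at 856 CPM against 6.73 CPM in fibroblast-like cells, while Nox4 was lower (1.63 against 47.8 CPM). Of 12 other heme and iron genes, 6 were higher, among them the phagosomal metal transporter Slc11a1 (296 against 9.14 CPM) and the biliverdin reductase Blvra (188 against 25.7 CPM), and both metallothioneins, Mt1 and Mt2, were lower. Of 11 other glutathione transferase genes, 2 were higher, Gsto1 (111 against 14.0 CPM) and Mgst3 (107 against 20.2 CPM), and 8 were lower, among them Gstm5 (2.90 against 113 CPM). Of 19 other thioredoxin and peroxidase genes, 2 were higher and 7 lower, the lower ones including the secreted Gpx3 (43.1 against 1809 CPM) and Sod3 (8.07 against 416 CPM). Of the 8 other Nrf2 partners and ligase genes at 20 CPM, 0 were higher and only the small Maf gene Maff was lower (55.9 against 201 CPM). Genes of the response to tissue dissociation, such as Fos and Egr1, were lower in macrophage-like cells for 15 of 19, and their part in these levels was not tested.

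Endothelial-like cells had 1 member higher than fibroblast-like cells, 11 lower, 21 within 2-fold and 4 under 20 CPM. Of the 8128 genes at 20 CPM, 19.2% were higher and 14.2% lower by the deposited totals, and 12.4% higher and 21.5% lower with TMM factors. The median log2 ratio was -0.39 for the members and 0.23 for all genes. The member that was higher was Nqo1, at 38.2 CPM (35.5 to 41.1) in endothelial-like and 4.73 CPM (4.40 to 5.07) in fibroblast-like cells. By hashtag population Nqo1 ranged from 16.4 to 67.1 CPM (median 40.5) in endothelial-like cells and from 1.7 to 8.4 CPM (median 5.1) in fibroblast-like cells, and these ranges did not overlap.

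The lower members included Prdx5 (74.1 CPM in endothelial-like against 260 CPM in fibroblast-like cells), Txn1 (258 against 609 CPM), Fth1 (2086 against 4477 CPM) and G6pdx (16.6 against 45.7 CPM). Of the 11, 9 were lower in all 9 hashtag populations, with no share of all genes given for comparison. Akr1b8 (9.67 against 46.7 CPM), Ptgr1 (4.15 against 28.2 CPM), Blvrb (36.6 against 76.3 CPM) and Pgd (26.7 against 54.9 CPM) are among the members without low values in the table. With the largest hidden count in place of each 0 the ratios of these 4 turned to above 1 in endothelial-like cells, past 2-fold except for Blvrb (1.88-fold). Endothelial-like cells had a median of 14659 reads against 45758 in fibroblast-like cells, so their direction is not settled. Gclm (51.1 against 25.6 CPM, 1.96-fold) and the regulators Nfe2l2 (179 CPM in both) and Keap1 (79.4 against 49.2 CPM) lay within 2-fold.

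Macrophage-like cells fell into 13 subclusters, named here by their leading genes. Of these, 2 carried genes of another class: the Col8a1 and Cilp subcluster of 68 cells had 8 of 8 fibroblast markers, and the Aqp1 and Gpihbp1 subcluster of 66 cells was led by endothelial genes. In the subcluster led by Serpinb9b, a serine protease inhibitor gene, and Uchl1, the mean log2(CPM + 1) of the members was 7.96, and 28 of the members had their highest level there. Its median depth was 120342 reads. The share of all genes with their highest level there is not given here, so the 28 have no background beside them. The other 12 subclusters had means from 6.08 in the Cd209f and Lyve1 subcluster to 6.87 in the Nusap1 and Prc1 subcluster. Gclm was at 429 CPM in the Serpinb9b subcluster, 85.9 CPM in the next highest, and 17.1 CPM in the Cd209f and Lyve1 subcluster. Prdx1 was at 11417 CPM, 2803 CPM in the next highest, and 612 CPM in the Cd226 and Ltb4r1 subcluster.

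Some members had another order over the subclusters. Hmox1 had 678 CPM both in the Cd209f and Lyve1 subcluster, where the mean of the members was lowest, and in the Serpinb9b subcluster. Sod2, the mitochondrial superoxide dismutase, was highest in the Cxcl9 and Serpina3g subcluster with 164 CPM. Of the 108 cells of that subcluster, 88 came from hashtag A0308. Nfe2l2 had a ratio of only 1.91 between its highest and lowest subcluster, with its highest level in the Cd226 and Ltb4r1 subcluster. Osgin1 reached 20.8 CPM in the Cd209f and Lyve1 subcluster and 7.47 CPM in the Serpinb9b subcluster.

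**Figure D3:**
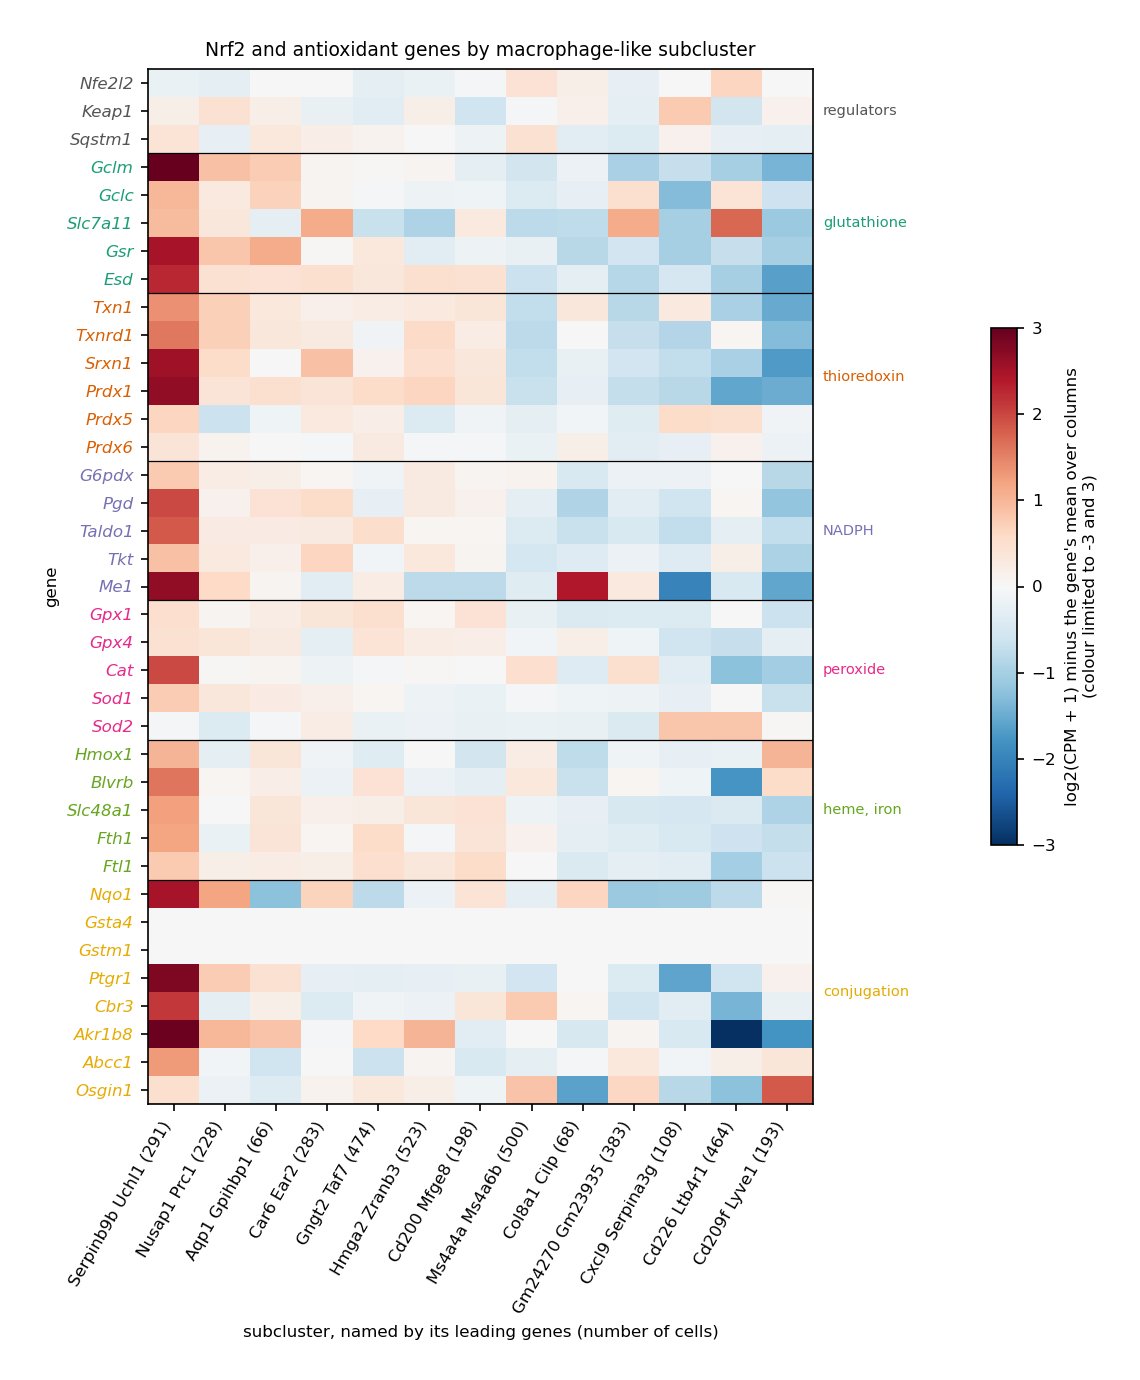
Level of each of the 37 genes (rows, coloured by role) in 13 macrophage-like subclusters (columns, cells in parentheses, ordered by mean level) as log2(CPM + 1) minus the gene's mean over the 13 subclusters. The Serpinb9b subcluster at the left holds the highest level of 28 genes, while Nfe2l2, Keap1 and Sod2 do not follow it, and Gsta4 and Gstm1 are listed at 0. The share of all genes highest in that subcluster is not given.

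The Serpinb9b subcluster held 291 cells, 7.70% of macrophage-like cells (6.87 to 8.60), and 20 of the members were higher there than in the other 3488 macrophage-like cells, 0 were lower, 12 lay within 2-fold and 5 were under 20 CPM. Of the 6380 genes at 20 CPM, 1.79% were higher (114 genes) and 5.08% lower. The median log2 ratio was 1.23 for the members and -0.07 for all genes. The 20 members were among the 114 higher genes, and 7 of the 20 genes with the largest ratios were members. The members were chosen, and this state was picked by Serpinb9b, with earlier results of these data known. These counts are therefore not an independent finding. The count of higher members depended on the resolution of the clustering. At a resolution of 0.5, 249 of the 291 cells fell into 1 group of 1086 cells. In the subcluster with the highest Serpinb9b level at that resolution, 0 members were higher and 1 was lower. Of all genes at 20 CPM, 0.397% were higher and 8.74% lower there. Whether that subcluster is the group of 1086 cells was not checked, so these counts may describe other cells. By hashtag population, 19 of the 20 members were higher in the Serpinb9b subcluster of 291 cells in at least 6 of 9. Only Taldo1 and Akr1b8, 2 of the 20, were higher in all 9, and Me1 in 3. These counts by population have no share of all genes beside them. The 8 populations other than A0310 gave 1 to 16 cells each to the subcluster. Without the 2 subclusters that carried genes of another class, the count of higher members was again 20.

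**Figure D4:**
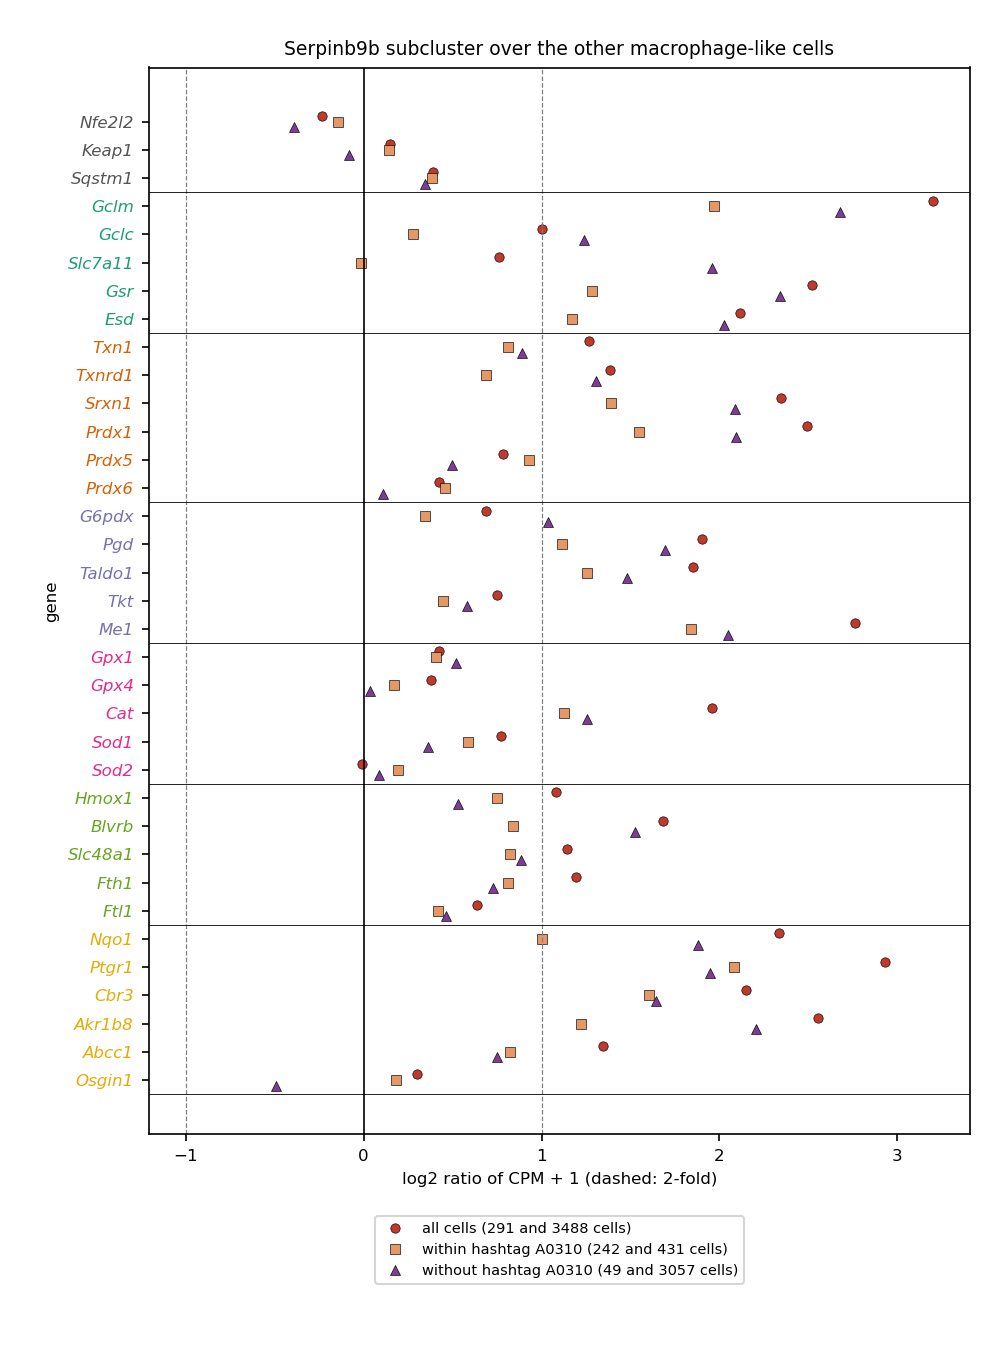
Log2 ratio of CPM + 1 in the Serpinb9b subcluster over the other macrophage-like cells for 35 genes (rows, coloured by role), in all cells (circles), within hashtag A0310 (squares) and without it (triangles). Gclm is farthest to the right in all cells, and Nfe2l2 lies left of 0 in all 3 settings.

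By role, the median log2 ratio in that subcluster was 2.35 for conjugation genes, 2.32 for glutathione genes, 1.85 for NADPH genes, 1.33 for thioredoxin genes and 1.14 for heme and iron genes at 20 CPM. Within hashtag A0310 these medians were 1.415, 1.23, 1.11, 0.87 and 0.81 in the same order. Without A0310 they were 1.80, 2.18, 1.26, 1.10 and 0.73. In cells of all hashtags, all 4 glutathione genes at 20 CPM were higher. Gclm had 429 CPM (422 to 436) in the Serpinb9b subcluster and 45.8 CPM in the other macrophage-like cells, 9.19-fold, and 4.52-fold with the largest hidden count in place of each 0. The glutathione reductase gene Gsr had 129 and 21.6 CPM, Esd had 1358 and 312.5 CPM, and Gclc was just past the limit with 51.1 and 24.9 CPM, 2.01-fold. Of the 6 thioredoxin genes, 4 were higher: Prdx1 (11417 and 2026 CPM), Srxn1 (327 and 63.5 CPM), Txnrd1 (359 and 137 CPM) and Txn1 (1892 and 785 CPM). Prdx5 (1.72-fold) and Prdx6 (1.34-fold) were not.

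All 4 conjugation and reduction genes at 20 CPM were higher. Ptgr1 had 316 CPM in the Serpinb9b subcluster and 40.6 CPM in the other macrophage-like cells, 7.63-fold, and 3.50-fold with hidden counts filled. Akr1b8 had 898 and 152 CPM, Cbr3 had 116 and 25.3 CPM, and Abcc1 had 104 and 40.3 CPM. Nqo1 had 12.0 and 1.58 CPM, under the 20 CPM limit in both. Of the 5 NADPH genes, Me1 (27.4 and 3.18 CPM), Pgd (612 and 163 CPM) and Taldo1 (1088 and 300.3 CPM) were higher, and Tkt (1.68-fold) and G6pdx (1.61-fold) were not.

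Of the heme and iron genes, 4 of 5 were higher, with Blvrb at 655 and 203 CPM, Fth1 at 17452 and 7637 CPM, Slc48a1 at 455 and 206 CPM and Hmox1 at 678 and 320 CPM. Ftl1 was at 24469 and 15703 CPM, 1.56-fold. Within hashtag A0310, 0 of these 5 heme and iron genes were higher, and without A0310 only 1 of 5 was. Catalase was the only peroxide gene of 5 past the limit, with 459 and 117 CPM, 3.89-fold, while Gpx1 had 5119 and 3811 CPM and Sod2 had 89.5 and 90.1 CPM. None of the 3 regulators was past it: Nfe2l2 had 170 CPM (166 to 175) in the Serpinb9b subcluster and 201 CPM in the other cells, Keap1 had 44.2 and 39.8 CPM, and Sqstm1 had 625 and 476 CPM.

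The difference was also seen per cell. Gclm had reads, of which at least 6 are needed to appear in the table, in 78.7% of the Serpinb9b subcluster (73.5 to 83.3), 20.4% of the other macrophage-like cells (19.1 to 21.8) and 10.8% of fibroblast-like cells (9.69 to 11.9). Their median depths were 120342, 58501 and 45758 reads. Akr1b8 had reads in 90.7% of cells of the subcluster and 32.2% of the other macrophage-like cells, and the median Prdx1 level per cell was 8301 and 1022 CPM. The difference was smaller against the 431 other macrophage-like cells of hashtag A0310, from which most cells of the subcluster came. Of those 431 cells, 36.7% had reads of Gclm and 52.4% of Akr1b8, and their median Prdx1 level was 1809 CPM. Among cells of 30000 to 150000 reads, with medians of 99757.5 and 70292 reads, 18 of the 20 members were still over 2-fold higher. Of the 6408 genes at 20 CPM in these cells, 2.09% were higher and 4.87% lower. The log2 ratio of Gclm was 3.50, against 3.20 in all cells.

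The Serpinb9b subcluster came mainly from 1 hashtag population. Hashtag A0310 gave 242 of the 291 cells, 83.2% (78.4 to 87.3). The subcluster was 36.0% of the A0310 macrophage-like cells (32.3 to 39.7), 6.42% in A0303, 2.27% in A0304, 2.15% in A0309 and 0.197% to 1.30% in the other 5 populations. Within A0310, 12 of the 20 members were over 2-fold higher in its 242 cells than in its other 431 macrophage-like cells, where 1.16% of genes were higher and 4.29% lower. Without A0310, 15 members were higher in 49 cells than in 3057 others, 14 of the 20 and G6pdx, where 1.67% of genes were higher and 4.58% lower. In both settings 11 of the 20 passed. Gclm was at 469 and 119 CPM within A0310 (3.92-fold) and at 224 and 34.1 CPM without it (6.41-fold). Prdx1 was at 12239 and 4189 CPM within A0310 (2.92-fold) and at 7178 and 1681 CPM without it (4.27-fold). The ratios that did not pass within A0310 included Txnrd1 (1.61-fold), Hmox1 (1.68-fold) and Fth1 (1.76-fold).

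Other genes of the pathway moved with part of the 20 members in the Serpinb9b subcluster. Of 6 other glutathione transferase genes at 20 CPM, 5 were higher, among them Gsta3 (34.1 CPM, against 2.18 CPM elsewhere in macrophage-like cells) and Gstp1 (211 against 79.0 CPM). Only 2 of 6 of these genes were higher within hashtag A0310, and 1 of 4 at 20 CPM without it. Gss, the glutathione synthetase that completes the tripeptide, was the only one of 8 other glutathione genes past the limit, with 56.9 against 13.5 CPM. Alas1, which starts heme synthesis, had 262 against 93.4 CPM as 1 of 12 other heme and iron genes. Of 6 NADPH oxidase genes, Ncf1 (625 against 178 CPM) and Cybb (1551 against 761 CPM) were higher. None of 8 Nrf2 partner and ligase genes at 20 CPM passed in either direction, and of 7 other NADPH genes 0 did. Among 14 other thioredoxin and peroxidase genes, 1 was higher and 1 lower. Among 11 other reductase, conjugation and export genes, 1 was higher and 0 were lower.

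Several other measures differed between these cells. The 10 macrophage markers summed to 4862 CPM in the Serpinb9b subcluster and 8445 CPM in the other macrophage-like cells, with Fcgr1 at 7.02 and 79.5 CPM, C1qa at 341 and 1165 CPM and Cd68 at 1599 and 1721 CPM. The 8 fibroblast markers summed to 734 and 1079 CPM, the 6 monocyte markers to 26.4 and 149 CPM and the 6 erythroid markers, which include the globin genes, to 0 and 363 CPM. Of 15 proliferation genes, 14 were lower in the subcluster, and of 18 dissociation response genes 5 were lower, with Egr1 at 127 and 621 CPM. Mmp12, a macrophage elastase, was at 10562 and 1875 CPM, and the lectin receptor Clec4d at 624 and 97.8 CPM. The part of these differences in the levels of the members was not tested.

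Across the 13 macrophage-like subclusters, the genes whose level followed the mean of the members most closely were Clec4d (Pearson r = 0.949), the glycolytic enzyme Aldoa (0.900), Serpinb9b (0.898), Gss (0.892) and Emp3 (0.886), followed by Gbe1, Card19, Prr13, Nsf and Prkcb (0.882 to 0.867). These were the first 10 of 8612 genes, and the 13 points share 1 library and differ in depth. Without the Serpinb9b subcluster, r was 0.951 for Clec4d, 0.894 for Aldoa, 0.643 for Gss and 0.417 for Prr13. Without the 2 subclusters that carried genes of another class, r was 0.957 for Clec4d and 0.898 for Aldoa over 11 points.

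By hashtag population, the mean log2(CPM + 1) of the members ranged in macrophage-like cells from 6.43 to 7.67 with a median of 6.63, in fibroblast-like cells from 5.96 to 6.32 with a median of 6.03, and in endothelial-like cells from 5.09 to 6.17 with a median of 5.47. The highest value in each of the 3 classes was that of A0310. In macrophage-like cells without the Serpinb9b subcluster the range was 6.40 to 7.23, again with A0310 highest. The median depth of A0310 was also the highest in each class, at 81031 reads against 26486 to 70266 in the other populations for macrophage-like cells, 63847 against 39369 to 62108.5 for fibroblast-like cells and 18538 against 12150 to 16045 for endothelial-like cells. The part of depth in these levels was not tested.

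**Figure D5:**
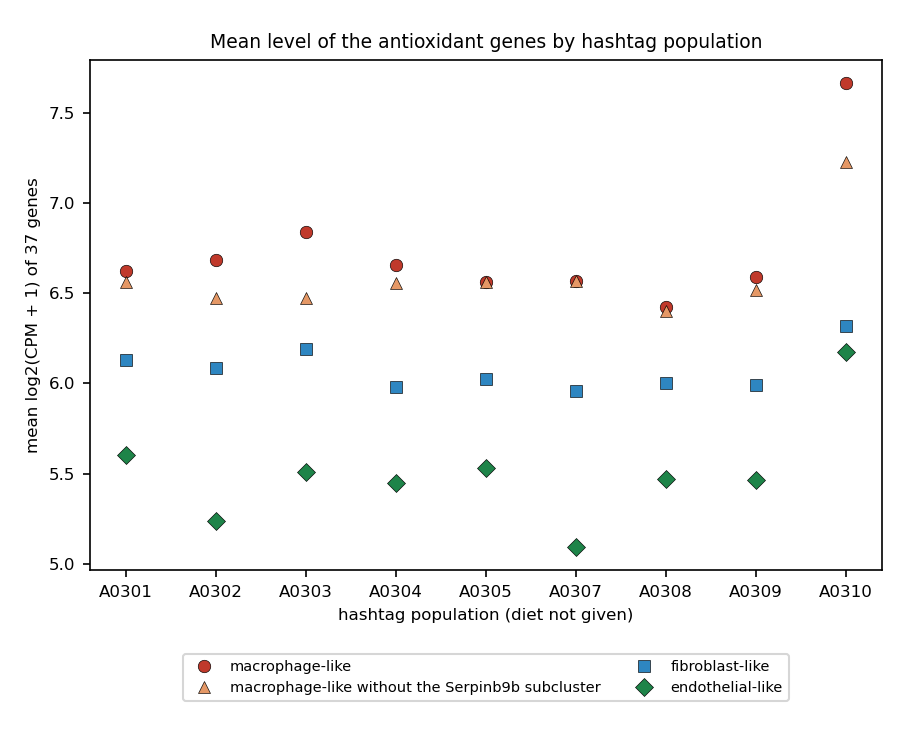
Mean log2(CPM + 1) of the 37 genes (vertical axis) in each of 9 hashtag populations (horizontal axis), with 1 value per population, for macrophage-like cells, macrophage-like cells without the Serpinb9b subcluster, fibroblast-like cells and endothelial-like cells. A0310 is highest in each, at 7.67 for macrophage-like cells and 7.23 without the subcluster.

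Of the 35 members with reads in macrophage-like cells, 26 had their highest level in A0310, as did 17 in fibroblast-like and 18 in endothelial-like cells. Of genes at 20 CPM in the class, A0310 held the highest level of 24 of 31 members and 12.1% of all genes in macrophage-like cells. For fibroblast-like cells it was 14 of 31 members and 16.7% of all genes, and for endothelial-like cells 17 of 29 members and 8.82% of all genes. In macrophage-like cells Gclm ranged from 29.5 to 278 CPM (median 47.9), Prdx1 from 1396 to 7842 CPM (median 1931), Srxn1 from 37.4 to 229 CPM (median 56.4) and Esd from 222 to 984 CPM (median 290.3), each with A0310 highest. In fibroblast-like cells Gclm ranged from 15.5 to 33.5 CPM (median 25.5) with A0307 highest, and Prdx1 from 549 to 794 CPM (median 600.2) with A0310 highest. In endothelial-like cells Gclm ranged from 15.1 to 106 CPM (median 39.9) and Hmox1 from 31.6 to 146 CPM (median 44.4), both with A0310 highest.

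A0310 was also highest inside subclusters. Of the macrophage-like subclusters other than the Serpinb9b one, 6 had at least 22 cells from A0310 and from at least 2 other populations, and in 6 of 6 the mean of the members was higher in A0310 than in each other population. In the Hmga2 and Zranb3 subcluster it was 7.17 in A0310 and 6.48 to 6.53 in 4 others. In the cycling Nusap1 and Prc1 subcluster it was 7.46 and 6.45 to 6.56. Gclm, Prdx1, Esd and Fth1 were highest in A0310 in 6 of these 6 subclusters, Srxn1 in 5 and Hmox1 in 2. The share of all genes highest in A0310 and the depth by population inside these subclusters are not given here. In all macrophage-like cells without the Serpinb9b subcluster, A0310 held the highest level of 21 of 31 members and 10.4% of all genes at 20 CPM. The part of depth in these differences was not tested. The Cd209f and Lyve1 subcluster held 0 cells of A0310.

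Fibroblast-like cells varied less. Their 10 subclusters had means of the members from 5.90 to 6.22, with at most 2 members higher and at most 2 lower than in the other fibroblast-like cells. Of all genes, 0.712% to 4.95% were higher and 1.74% to 16.7% lower. The 2 higher members were in the Retnla and C1qb subcluster, where 4.95% of all genes were higher. In the mt-Rnr2 and Inmt subcluster 2 members and 16.7% of all genes were lower, and in the Apoe and Vtn subcluster 1 member and 15.3%. These few calls are not read as a result about the members. Gclm ranged from 12.5 to 32.9 CPM over them, Prdx1 from 509 to 973 CPM and Hmox1 from 29.8 to 138 CPM. The highest mean, Prdx1 and Hmox1 were those of a subcluster of 60 cells whose leading genes were Retnla, C1qb and H2-Ab1, genes also expressed by macrophages.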

How the data were processed

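Cells were measured by BD Rhapsody with TAS-Seq amplification, in 1 transcriptome and 1 hashtag library of the same pool. The deposited values are whole-number counts per gene and cell and per hashtag and cell barcode; the submitters' processing notes name cutadapt 2.10, Bowtie2 2.4.2, R 3.6.3 and the build GRCm38, and cell and hashtag calling rules are not given there. Counts were treated as reads, since no collapse to molecules is recorded, so intervals are too narrow. Columns named with the authors' hashtag or doublet call (12028) were used, and 12 others were not. Cells over 25% mitochondrial reads (1253), 254 hashtag doublets and 236 doublets called by Scrublet (1 in both) were removed. Remaining cells, scaled to 10000 and logged, went into Leiden clustering (resolution 1, 15 neighbours, 30 components, 2000 variable genes, seed 7) in Python 3.11.15 with scanpy 1.11.5, leidenalg 0.10.2, scikit-learn 1.9.0, numpy 2.4.6, scipy 1.17.1 and pandas 2.3.3, without the members and the related lists. Macrophage-like and fibroblast-like cells were clustered again alone. A class needed 55% of its markers, at least 3, each detected in 10% of cells; this threshold was set after clusters were seen, and 3 clusters (228, 218 and 505 cells) stayed unnamed. The labels give 1 pooled sample and assign no hashtag population to an animal or group, so these were not used as replicates and no test was made; TMM and median-of-ratios factors came from edgeR 4.0.16. The ratio script was tested on simulated data. Of the gene symbols, 28350 (96.4%) match GENCODE M21. Any member may be named; of other lists, those past 2-fold with large ratios. Members and lists were chosen with earlier results of these data known.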

Additional observations from a re-analysis of the deposited data

How the results depend on the processing

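Across the alternatives, members highest in macrophage-like cells of 5 classes numbered 18 to 25, members higher in macrophage-like than fibroblast-like cells 11 to 19, and members higher in the Serpinb9b subcluster 18 to 21, apart from Leiden resolution 0.5 (0 higher, 1 lower), within A0310 (12 higher) and without A0310 (15 higher). Members lower in macrophage-like cells numbered 1 with TMM and 1 with median-of-ratios factors, against 2. Members higher in endothelial-like than fibroblast-like cells numbered 2 with cells thinned to 5000 reads, at Leiden resolution 2 and in cells of 30000 to 150000 reads, 0 at a minimum of 50 CPM and 9 with gaps filled (7 of the 35 with reads, plus Gsta4 and Gstm1, which have none in either class), against 1, and lower ones 7 at 50 CPM, 6 in that depth window and 6 with gaps filled, against 11. Filling gaps replaces each 0 by the highest count below a gene's lowest value, and turned the endothelial-like log2 ratios of Pgd (1.01), Blvrb (0.91), Ptgr1 (1.15) and Akr1b8 (1.02) to above 0; the members' median was then 0.29 and that of all genes 0.27. At Leiden resolution 0.5 the subcluster with the highest Serpinb9b level may hold other cells than at resolution 1. Its log2 ratios were below 0 for Gclc (-0.089), Gsr (-0.20), Txnrd1 (-0.37), Pgd (-0.040), Cat (-0.077), Hmox1 (-0.18) and Abcc1 (-0.15). TMM moved the median of all genes to 0.16 (macrophage-like), -0.26 (endothelial-like) and 0.12 (Serpinb9b subcluster); the members' medians were then 1.16, -0.82 and 1.41. Members higher in macrophage-like cells in all 9 hashtags numbered 20, 17 by a stricter hashtag rule that kept 1030 of the fibroblast-like cells, and 14 with subclusters weighted equally. The share of all genes higher in all 9 is not given, so these counts have no background beside them. The alternatives of depth window, A0310, leaving out the Serpinb9b subcluster and the correlations without 2 subclusters were chosen after seeing the data. Cell classes were compared within each hashtag population by direction only. No paired test was made, because the labels assign no population to an animal or group. Hashtag calls rest on a median of 2107 tag counts in macrophage-like cells and of 45 in fibroblast-like ones. The top hashtag held a median of 97.9% and 53.8% of these counts.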

Other observations

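The 9 hashtag populations carry no diet label. In macrophage-like cells, the mean log2(CPM + 1) of the 37 genes was 6.63 in A0301, 6.68 in A0302, 6.84 in A0303, 6.66 in A0304, 6.56 in A0305, 6.57 in A0307, 6.43 in A0308, 6.59 in A0309 and 7.67 in A0310, so 8 populations lay within 6.43 to 6.84 and A0310 apart from them. Without the Serpinb9b subcluster the values were 6.56, 6.47, 6.47, 6.56, 6.56, 6.57, 6.40, 6.52 and 7.23 in the same order. In fibroblast-like cells they were 6.13, 6.09, 6.19, 5.98, 6.03, 5.96, 6.00, 5.99 and 6.32, with no wide gap. Hashtag calls were less clear in fibroblast-like cells. The top hashtag held a median of 53.8% of tag counts there, 97.9% in macrophage-like and 91.3% in endothelial-like cells. The part of this in the narrower range of fibroblast-like cells was not tested. In endothelial-like cells they were 5.60, 5.24, 5.51, 5.45, 5.53, 5.09, 5.47, 5.47 and 6.17, with A0310 again apart.

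For Gclm in macrophage-like cells, the levels in the same order were 50.2, 57.2, 49.7, 47.9, 37.2, 29.5, 35.0, 41.9 and 278 CPM. For Akr1b8 they were 89.6, 66.1, 135, 97.0, 78.0, 63.7, 146, 178 and 668 CPM, with A0309 and A0308 next below A0310. Me1 had a different order in macrophage-like cells, with 12.1, 15.9 and 10.2 CPM in A0301 to A0303, 1.5 to 2.7 CPM in A0304 to A0309 and 17.9 CPM in A0310. These are values of single populations, and no cause was tested.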
